A study of Mus musculus with 40 samples.

Results

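The esophagus of the mouse embryo was compared between E13.5 and E10.5 (embryonic days, with noon of the day of the plug as E0.5), from poly-A selected RNA sequenced in bulk. The comparison takes the 2 esophagus libraries of each age, 4 of the 40 libraries of the series, chosen by tissue and age alone. All 4 came from untreated wild type embryos of the FVB/N strain, and every library pooled tissue dissected from 10 animals, a piece of foregut lying behind the larynx. The other libraries hold larynx and trachea, further ages from E11.5 to the adult, and a second kind of library that was not used in the fit. The question behind the series is how the transcriptomes of larynx, trachea and esophagus change as the organs form. According to the paper, separation of esophagus and trachea had begun before E10.5 and had reached the level of the vocal folds at E13.5. Values are normalized counts (the deposited expected count of a gene divided by a size factor of the library), "higher" means higher at E13.5, and a call is an adjusted p under 0.05 in edgeR's quasi-likelihood test over all genes. Because a pool is 1 sample, n = 2 for each age, the spread was estimated over 15 groups of tissue and age, and the p-values describe the spread between pools. The 4 libraries held 17300484 to 19482486 expected counts, with 22479 to 25143 genes at a count above 0.

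At E10.5 the esophagus is a newly formed, short tube next to the neural tube, the heart and the somites. By E13.5 the esophagus is separate from the airway up to the larynx. Its lining is known to turn from a simple epithelium into a stratified one with a basal layer that carries p63 and keratins 5 and 14. Mesenchyme around it becomes smooth muscle and connective tissue, neural crest cells enter the wall to form the enteric nervous system, and skeletal muscle invades from the cranial end.

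The tissue labels were first set against marker genes. Epcam, a surface protein of epithelia, had 197 and 203 normalized counts in the E10.5 libraries and 926 and 339 in the E13.5 libraries (replicates 1 and 2, the order kept for all pairs of values). Nkx2-1, the regulator of the respiratory side of the foregut, had 0 and 0 at E10.5 and 10.8 and 0.742 at E13.5, and the lung gene Sftpc was at 0 in all 4 libraries. Trp63, which encodes p63 and maintains basal cells, was named after its values were seen, and had 214 and 123 at E10.5 and 632 and 629.5 at E13.5. Epithelial markers were thus present at both ages. The 12 genes of the lung list, of which 5 to 6 were at 0 in each library, summed to 468 and 584 normalized counts at E10.5 and to 742 and 993 at E13.5, with 2 members higher. Transcripts of other neighbouring organs were present as well. Summed over 20 heart muscle genes, E10.5 held 2583 and 9645 normalized counts and E13.5 held 19931 and 126693, so replicate 2 of E13.5 stood far above the rest. Summed over 20 liver plasma protein genes the E13.5 libraries held 46986 and 5035, against 11980 and 12955 at E10.5. In the same order, 16 genes of thyroid, parathyroid and thymus summed to 1961 and 178 at E13.5 and to 231 and 304 at E10.5. The E13.5 pools lay further apart than the E10.5 pools: 544 genes (3.63% of genes with a mean normalized count over 20) lay more than 4-fold apart between the E13.5 libraries and 92 genes (0.61%) between the E10.5 libraries. The E10.5 pools also differed in Xist, the transcript of the inactive X chromosome of females, named after its values were seen (30609 and 282). For many results below the effect of leaving out 1 library is given, though not for every list.

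**Figure D1:**
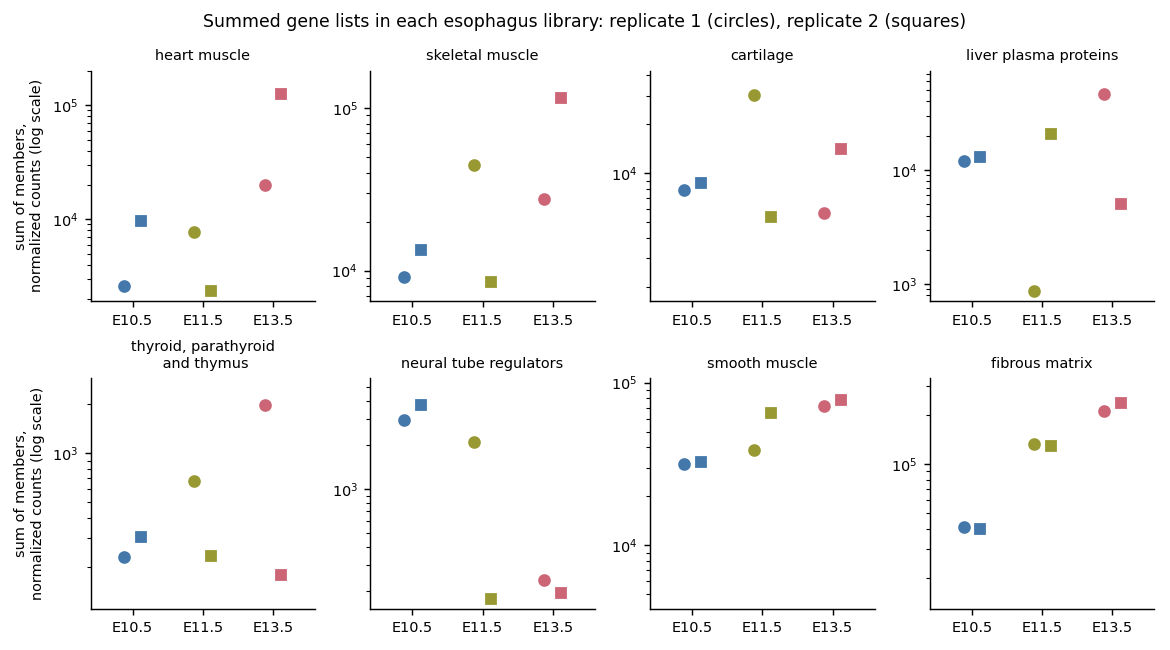
Sum of the normalized counts of each gene list (log axis) in the 2 esophagus libraries of E10.5, E11.5 and E13.5. Heart and skeletal muscle were highest in replicate 2 of E13.5, liver and thymus genes in replicate 1 of E13.5, while the fibrous matrix sums of both replicates lay close together at every age.

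Of 35512 genes tested, 2627 (7.40%) were higher and 1842 (5.19%) were lower at E13.5. Among 20210 protein-coding genes 2580 (12.8%) were higher and 1481 (7.33%) were lower. The median log2 fold change was 0.00 over all genes tested and 0.011 over genes with a mean normalized count over 20, so list medians below can be read against 0. Of the calls, 1030 higher genes and 409 lower genes passed without each of the 4 libraries in turn. In a bulk sample fewer cells of a type and less RNA per cell cannot be told apart, which holds for every change below. Among lists with more than 4 members, those of fibrous matrix, macrophages, basal epithelium and skeletal and smooth muscle had the largest shares of higher genes, and those of the Lin28 network and of neural tube regulators the largest shares of lower genes. Of the short globin lists, 4 of 4 adult globins were higher and 2 of 3 embryonic globins were lower.

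**Figure D2:**
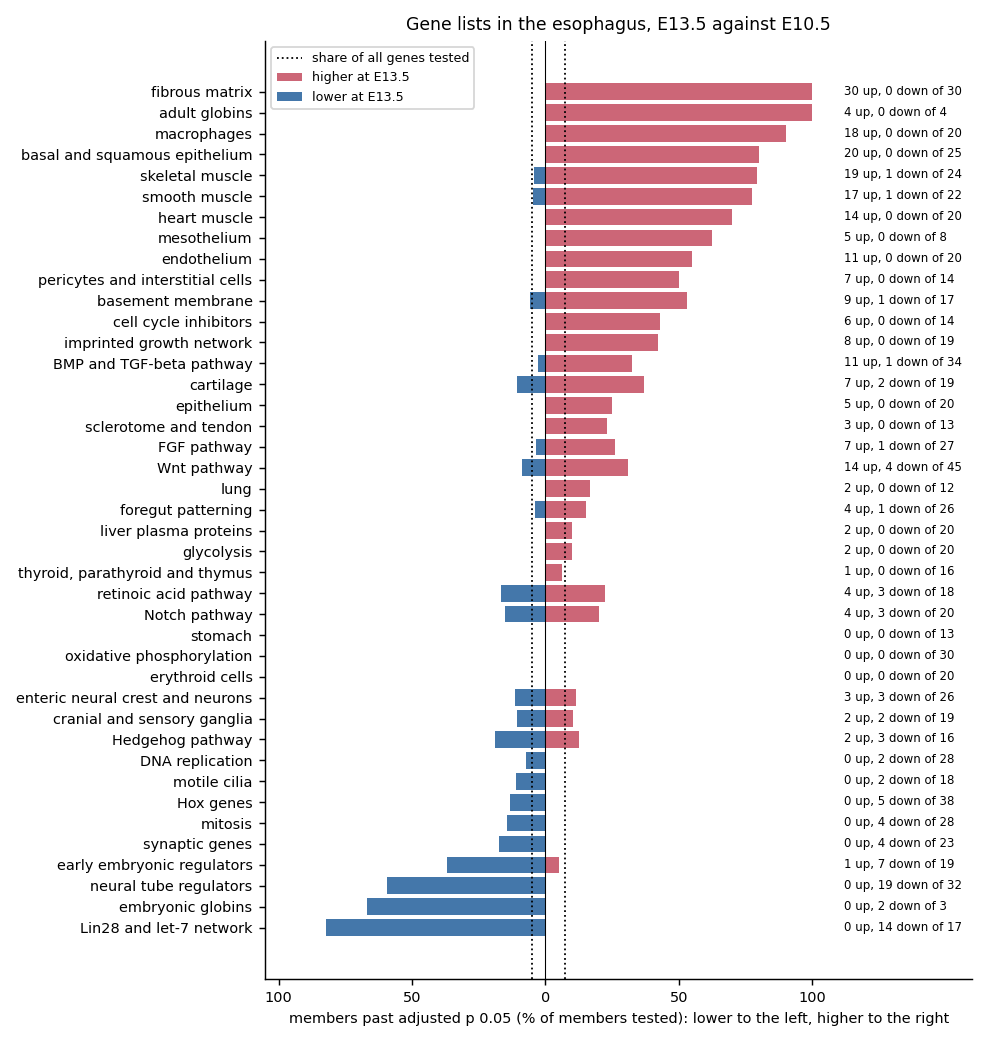
Share of the tested members of each of 41 gene lists called higher (bars to the right) or lower (bars to the left) at E13.5, with the counts beside each bar and the shares over all 35512 genes as dotted lines. Fibrous matrix reached 30 of 30 members higher and the Lin28 and let-7 network 14 of 17 lower.

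Connective tissue genes rose. All 30 of 30 members of the fibrous matrix list (fibrillar collagens, elastic fibre proteins, small proteoglycans and the enzymes that cross-link them) were higher, with a median log2 fold change of 2.62, and 27 to 30 were higher when a library was left out. Col3a1, a fibrillar collagen of soft tissue, had 10643 and 9916 normalized counts at E10.5, 27560 and 28953 at E11.5 and 60148 and 60509 at E13.5 (log2 fold change 2.55 ± 0.3 SE, adjusted p = 3.73e-06). The replicates of each age agreed closely and no value of one age fell within the range of another. Col1a1, the main chain of type I collagen, went from 2338 and 2289 to 14985 and 16838 (2.78 ± 0.42 SE, adjusted p = 7.74e-05). Lox, the enzyme that cross-links collagen and elastin, had 132 and 102 at E10.5, 2175 and 1536 at E11.5 and 3063 and 2451 at E13.5 (4.55 ± 0.36 SE, adjusted p = 2.3e-08). Most of that rise was reached by E11.5 (3.98 of 4.55 on the log2 scale). Eln, which encodes elastin, had 53.2 and 80 and then 5465 and 1612 (5.73 ± 0.7 SE, adjusted p = 5.21e-06). Among the small proteoglycans, Aspn (asporin) rose from 8.06 and 12 to 873 and 714 (6.28 ± 0.61 SE, adjusted p = 2.79e-07) and Ogn (osteoglycin) from 58.1 and 103 to 2482 and 3475 (5.2 ± 0.43 SE, adjusted p = 2.89e-08). Dpt, a collagen-binding matrix protein that was near the counting limit at E10.5 (1.61 and 1.5), stood at 105 and 104 at E13.5 (5.97 ± 0.75 SE, adjusted p = 1.24e-05). Of the 17 basement membrane genes 9 were higher and 1 was lower, and 4 to 11 were higher with a library left out. Lama1, the laminin chain of early embryonic basement membranes, fell from 1636 and 1635 to 229 and 322 (-2.57 ± 0.5 SE, adjusted p = 0.00106), and Lama4, the chain of vessels and muscle, rose from 839 and 771 to 2969 and 4666 (2.25 ± 0.24 SE, adjusted p = 1.13e-06).

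Transcripts of basal and stratified epithelium rose. Of the 25 genes of basal and squamous epithelium 20 were higher and none was lower, with a median log2 fold change of 3.02, and 11 to 15 were higher with a library left out. Of 20 general epithelial genes 5 were higher and none was lower, and all 20 log2 fold changes were above 0, with a median of 1.55. That count depended on the fit, with 0 to 5 higher when a library was left out, 17 without a filter, 13 without 3 libraries rich in olfactory receptor genes, 10 with ages E10.5 to E13.5 only, 9 with the 4 libraries only and 8 with the esophagus libraries only. Krt5, the basal keratin, had 68.5 and 52.4 normalized counts at E10.5, 305 and 314 at E11.5 and 1321 and 964 at E13.5 (log2 fold change 4.24 ± 1.01 SE, adjusted p = 0.00589). Its partner Krt14 went from 24.2 and 39.6 to 469.7 and 1338 (4.81 ± 1.05 SE, adjusted p = 0.00271), and Krt15, a keratin of esophageal basal cells, from 24.2 and 18 to 599 and 1099.5 (5.33 ± 1.28 SE, adjusted p = 0.00605). Krt17 rose from 3.23 and 3.74 to 570.1 and 251 (6.83 ± 1.3 SE, adjusted p = 0.00076), and Perp, a desmosome protein controlled by p63, from 122 and 87.5 to 552 and 1149 (3.02 ± 0.62 SE, adjusted p = 0.00159). The groups did not overlap for any of these genes. Trp63 itself just passed (1.9 ± 0.63 SE, adjusted p = 0.0484), and its call was lost without any 1 of the 4 libraries (adjusted p up to 0.325). Krt4, a keratin of the layers above the basal layer, had 0.806 and 0 at E10.5 and 66 and 108 at E13.5, and with a single read at E10.5 the ratio was 223 with a 95% counting interval of 39.6 to 8836. Krtdap and S100a14 are not on either list and are among the 10 largest rises by fitted log2 fold change. Of those 10 genes 7 were at 0 in both E10.5 libraries, so their folds are known only as lower bounds, and their order against rises such as that of Krt4 is not fixed by these counts. Krtdap, a secreted protein of differentiating keratinocytes, was at 0 in all libraries of E10.5 and E11.5 and at 61 and 117 at E13.5, at least 38.2-fold higher than the limit of 3 counts per library. S100a14, a calcium-binding protein of stratified epithelia, was at 0 at E10.5 and at 96.8 and 74.2 at E13.5, at least 36.7-fold higher.

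Several calls in the basal list rested on single libraries. Krt5 and Krt15 lost their calls without either E10.5 library (adjusted p up to 0.0835 and 0.0856), Krt14 without E10.5 replicate 1 (0.0652), and Krt4 without either E10.5 library or without E13.5 replicate 2 (0.154). General epithelial genes differed between the E13.5 libraries. Krt8, a keratin of simple epithelia, had 547 and 512 at E10.5, 170.3 and 570 at E11.5 and 2627 and 286 at E13.5 (1.46 ± 0.82 SE, adjusted p = 0.299), so that replicate 1 of E13.5 lay above and replicate 2 below both E10.5 values. Without replicate 1 of E13.5 the log2 fold change of Krt8 was -0.89. The general epithelial sum was 10403 in replicate 1 and 4059 in replicate 2 of E13.5, in the order in which the liver and thymus genes also lay. Their part in the epithelial result was not tested.

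Of 26 regulators of foregut patterning 4 (15.4%) were higher and 1 (3.85%) was lower, against 12.8% and 7.33% of protein-coding genes. Sox2, which marks the dorsal foregut that forms the esophagus and is also active in neural progenitors, fell from 302 and 455 to 52.3 and 65.3 (log2 fold change -2.68 ± 0.6 SE, adjusted p = 0.00343), a call lost without E13.5 replicate 1 (adjusted p = 0.0537). At E11.5 Sox2 already stood at 138 and 37.3. The genes that rose include factors known from mesenchyme or mesoderm, though bulk libraries do not show in which cells a gene rose. Osr1, a zinc finger factor of the foregut mesenchyme, had 80.6 and 56.9 at E10.5, 439.6 and 495 at E11.5 and 488 and 514 at E13.5 (2.86 ± 0.37 SE, adjusted p = 1.01e-05), and Hic1, a repressor found in fibroblast progenitors, had 58.9 and 61.3 at E10.5, 643 and 471 at E11.5 and 719 and 607 at E13.5 (3.46 ± 0.47 SE, adjusted p = 2.13e-05). Both were near their E13.5 level by E11.5. Gata6 rose from 225 and 135 to 655 and 609 (1.81 ± 0.4 SE, adjusted p = 0.00287; lost without E10.5 replicate 2, adjusted p = 0.0768), and Wnt2b, a ligand of the ventral foregut mesoderm, from 45.2 and 66.6 to 143 and 177 (1.52 ± 0.39 SE, adjusted p = 0.00991; lost without E10.5 replicate 1 or E13.5 replicate 2, adjusted p up to 0.157). Shh, the ligand of the foregut epithelium, had 79 and 62.8 and then 43.7 and 23 and did not pass (-1.08 ± 0.77 SE, adjusted p = 0.457).

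**Figure D3:**
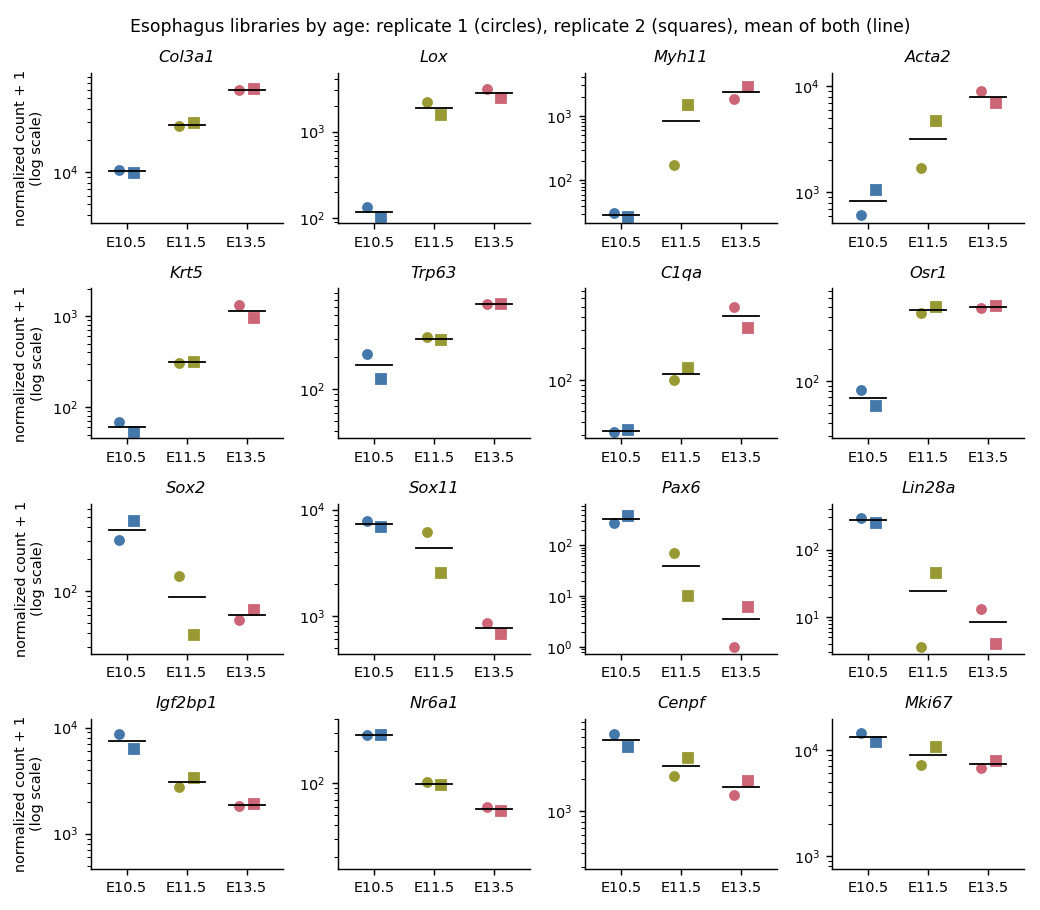
Normalized counts plus 1 (log axis, a separate range for each gene) of 16 genes in the 6 esophagus libraries of E10.5, E11.5 and E13.5. Matrix, smooth muscle, basal epithelium and macrophage genes lay higher at E13.5 in both replicates, and Sox2, Sox11, Pax6, Lin28a, Igf2bp1 and Nr6a1 lay lower in both.

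Genes of the smooth muscle contractile apparatus rose. Of the 22 smooth muscle genes 17 were higher and 1 was lower, with a median log2 fold change of 2.35, and 10 to 14 were higher with a library left out. Myh11, the smooth muscle myosin heavy chain, had 29.8 and 26.2 normalized counts at E10.5, 171 and 1476 at E11.5 and 1816 and 2801 at E13.5 (log2 fold change 6.36 ± 0.96 SE, adjusted p = 6.6e-05). The E11.5 libraries differed strongly, with replicate 2 close to the E13.5 level and replicate 1 between the ages. Actg2, the actin of visceral smooth muscle, showed the same spread at E11.5 (94.6 and 1289) between 40.3 and 35.2 at E10.5 and 1536 and 1309 at E13.5 (5.23 ± 1.07 SE, adjusted p = 0.0016). Acta2 rose from 617 and 1041 to 8931 and 6924 (3.26 ± 0.41 SE, adjusted p = 6.81e-06) and Myl9, a regulatory myosin light chain, from 371 and 648 to 4328 and 6533 (3.41 ± 0.46 SE, adjusted p = 1.74e-05). Myocd, the cofactor that switches on smooth muscle genes, rose from 27.4 and 59.8 to 414 and 473 (3.34 ± 0.59 SE, adjusted p = 0.000386). Cnn1, the calponin of contractile smooth muscle, went from 33.1 and 95 to 765 and 795 (3.6 ± 0.82 SE, adjusted p = 0.00392) and lost its call without E10.5 replicate 1 (adjusted p = 0.0951). Flna, the abundant actin cross-linker of all mesenchyme, had 19373 and 17590 at E10.5 and 29798 and 26791 at E13.5 and did not pass (0.61 ± 0.28 SE, adjusted p = 0.179). The single member that fell was Ckb, the brain type creatine kinase, named here after its values were seen, from 2579 and 4491 to 939 and 1043 (-1.83 ± 0.54 SE, adjusted p = 0.0262; not called without E10.5 replicate 2, E13.5 replicate 1 or E13.5 replicate 2, adjusted p up to 0.231). Several members, among them Acta2, Tpm1 and Casq2, are also active in embryonic heart, whose transcripts were highest in replicate 2 of E13.5. The part of heart transcripts in the smooth muscle result was not tested.

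Skeletal and heart muscle genes rose as well, and more unevenly. Of 24 skeletal muscle genes 19 were higher and 1 was lower (12 to 20 higher with a library left out). Myh3, the embryonic myosin heavy chain, had 1390.1 and 904 normalized counts at E10.5 and 5369 and 14581 at E13.5 (log2 fold change 3.12 ± 0.79 SE, adjusted p = 0.00913; not called without E10.5 replicate 1, E10.5 replicate 2 or E13.5 replicate 2, adjusted p up to 0.118), and Myh8, the perinatal chain, had 104 and 106 at E10.5 and 1802 and 4128 at E13.5 (4.82 ± 0.83 SE, adjusted p = 0.000297). Mymk, the membrane protein that lets myoblasts fuse, rose from 12.1 and 8.98 to 129 and 213 (4.01 ± 0.66 SE, adjusted p = 0.000252), and Ckm, the muscle creatine kinase, from 2.42 and 1.5 to 81 and 299 (6.53 ± 0.94 SE, adjusted p = 5.01e-05). Replicate 2 of E13.5 held the higher value of each of these genes, and the list summed to 27502 and 114499 at E13.5. That pool also held the highest heart muscle sum of the esophagus libraries (126693). In the E10.5 trachea libraries the skeletal list summed to 42444 and 77603 and the heart list to 54609 and 98153. In replicate 1 of E11.5 esophagus the sums were 44587 and 7706. The part of heart transcripts in the skeletal muscle result was not tested. Pax3, the regulator of migrating muscle progenitors and of the dorsal neural tube, fell from 423 and 581 to 5.74 and 17.1 (-5.45 ± 0.84 SE, adjusted p = 8.73e-05). Of 20 heart muscle genes 14 were higher, but only 3 were called without E13.5 replicate 2 and 5 without E10.5 replicate 1. Myh6, the atrial myosin heavy chain, had 127 and 3233 at E10.5 and 3189 and 36209 at E13.5 (3.55 ± 1.09 SE, adjusted p = 0.0328; not called without E10.5 replicate 1 or E13.5 replicate 2, adjusted p up to 0.759), so the ages overlapped. Sln, which encodes the calcium pump regulator sarcolipin of atrial and embryonic skeletal muscle, did not overlap, with 4.84 and 5.24 at E10.5 and 118 and 655 at E13.5 (6.23 ± 0.86 SE, adjusted p = 2.59e-05). Of 8 genes of the mesothelium, the lining of the heart sac and body cavity, 5 were higher (3 to 4 with a library left out), among them Upk3b from 160.4 and 147 to 1217 and 2705 (3.67 ± 0.56 SE, adjusted p = 9.09e-05) and Msln from 5.64 and 6.73 to 114 and 325 (5.12 ± 0.81 SE, adjusted p = 0.000113).

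Macrophage genes rose evenly in both E13.5 libraries. Of 20 macrophage genes 18 were higher, with a median log2 fold change of 2.88, and 16 to 18 with a library left out. C1qa, a chain of complement C1q made by tissue macrophages, had 30.6 and 32.2 normalized counts at E10.5, 98.1 and 128 at E11.5 and 501 and 311 at E13.5 (log2 fold change 3.69 ± 0.32 SE, adjusted p = 6e-08) and passed the test over each step (adjusted p = 0.000875 and 0.00122). Csf1r, the receptor that macrophages need to survive, had 124 and 188 at E10.5, 502 and 399 at E11.5 and 1133 and 929 at E13.5 (2.72 ± 0.26 SE, adjusted p = 1.89e-07). Mrc1, the mannose receptor, rose from 273 and 275 to 1078 and 1144 (2.02 ± 0.25 SE, adjusted p = 6.46e-06), and Adgre1, which encodes F4/80, from 25.8 and 38.9 to 335 and 286 (3.25 ± 0.38 SE, adjusted p = 3.3e-06). For these genes each age formed a group of its own without overlap. From 0 at E10.5, 3 further genes of blood cells or defence stood among the 10 largest rises by fitted fold change. Cma1, the mast cell chymase, was at 102 and 25.2 at E13.5, at least 27.2-fold higher, Tnfsf10 (the death ligand TRAIL) at 149 and 17.1, at least 35.6-fold higher, and Ltf (lactoferrin) at 88.9 and 14.8, at least 22.3-fold higher. All were higher in replicate 1 of E13.5, and the call for Ltf was lost without it (adjusted p = 0.0625).

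Vessels changed less. Of 20 endothelial genes 11 were higher (6 to 11 with a library left out), with a median log2 fold change of 0.91. Pecam1, an adhesion protein of all endothelium, went from 717 and 646 to 1636 and 2128 (1.47 ± 0.23 SE, adjusted p = 8.67e-05), and Lyve1, a receptor of lymphatic endothelium and of some macrophages, from 75 and 77.8 to 333 and 459 (2.37 ± 0.45 SE, adjusted p = 0.000758). Of 14 genes of pericytes and interstitial cells 7 were higher. Kcnj8, a potassium channel of pericytes, rose from 12.9 and 18 to 308 and 289.5 (4.26 ± 0.44 SE, adjusted p = 6.61e-07) and Rgs5, a pericyte regulator of G protein signalling, from 93.5 and 62.8 to 1117 and 405 (3.28 ± 0.51 SE, adjusted p = 9.08e-05), while Pdgfra, a receptor of most mesenchyme, had 5478 and 4033 at E10.5 and 5918 and 5897 at E13.5 (0.31 ± 0.25 SE, adjusted p = 0.527).

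Genes of the neural tube fell. Of 32 neural tube regulators 19 were lower and none was higher, with a median log2 fold change of -5.58 as fitted and -4.37 with the 7 members at 0 at E13.5 set to their bound. With a library left out 10 to 15 were lower. Msx3, a homeobox gene of the dorsal neural tube that is not on the list and ranked first among the falls by fitted fold change, had 183 and 301 normalized counts at E10.5 and 0 in both E13.5 libraries, at least 111-fold lower. Olig3, a regulator of dorsal progenitors, had 111 and 186 and then 0 (at least 67.8-fold lower), and Atoh1, which specifies the most dorsal interneurons, had 108 and 133 and then 0 (at least 55.1-fold). Outside the list, Prdm13, a regulator of dorsal interneuron fate, and Sp8, a zinc finger factor of the early neural tube and ectoderm, fell at least 55.2-fold and 58.2-fold to 0. Pax6, a regulator of neural progenitors, had 277 and 375 at E10.5, 68.8 and 8.97 at E11.5 and 0 and 5.2 at E13.5 (log2 fold change -6.92 ± 1.26 SE, adjusted p = 0.000562). Hes5, a target of Notch in neural progenitors, fell from 148 and 349 to 5.02 and 3.71 (-5.79 ± 1.05 SE, adjusted p = 0.000506), and Neurod4, a factor of newborn neurons, from 465 and 374 to 5.02 and 1.48 (-6.95 ± 1.44 SE, adjusted p = 0.002). Lhx1, a LIM factor of interneurons and motor neurons, had 173 and 266 at E10.5 and 0 and 2.23 at E13.5 (ratio 202, 95% counting interval 68.7 to 981), a call lost without E13.5 replicate 1 (adjusted p = 0.0536). Sox11, a factor of neural and mesenchymal progenitors and no member of the list, fell from the far higher level of 7777 and 6815 through 6182 and 2538 to 851 and 667 (-3.26 ± 0.34 SE, adjusted p = 7.08e-07).

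The neural sums of the E11.5 libraries lay far apart. Summed over the list, neural tube regulators stood at 2987 and 3786 at E10.5, at 2113 and 175 at E11.5, and at 237 and 192 at E13.5. One E11.5 pool thus lay near the E10.5 libraries and the other near the E13.5 libraries, and the cartilage list in the same E11.5 pools summed to 30127 and 5396. The part of neighbouring nervous tissue in these falls was not tested. Of the synaptic genes 4 of 23 were lower (1 to 3 with a library left out).

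Among 26 listed genes of the enteric nervous system, 3 (11.54%) were higher and 3 (11.54%) were lower, against 12.8% and 7.33% of protein-coding genes. Both counts changed with some of the libraries left out. The log2 fold change was below 0 for 17 of the 26 genes (median -0.51). Lower genes numbered 7 with DESeq2, 9 without a filter, 6 without the olfactory libraries and 6 with the 4 libraries only, while higher genes numbered 3 to 4 in these fits. The 3 higher genes are known from glia and crest precursors. S100b, a glial calcium-binding protein, rose from 1.61 and 4.49 to 54.5 and 60.1 normalized counts (log2 fold change 4.16 ± 0.68 SE, adjusted p = 0.000164), Erbb3, the neuregulin receptor of crest and Schwann cell precursors, from 531 and 535 to 1116 and 1508 (1.3 ± 0.32 SE, adjusted p = 0.00646; not called without E10.5 replicate 1, E10.5 replicate 2 or E13.5 replicate 2, adjusted p up to 0.0781), and Gfra2, the neurturin receptor, from 21 and 27.7 to 68.1 and 96.5 (1.75 ± 0.46 SE, adjusted p = 0.0111; not called without E10.5 replicate 1, E10.5 replicate 2 or E13.5 replicate 2, adjusted p up to 0.138). The lower genes include Elavl3 and Elavl4. Elavl4, an RNA-binding protein of neurons, fell from 1282 and 1494 to 179 and 58.6 (-3.55 ± 0.84 SE, adjusted p = 0.00524; not called without E13.5 replicate 2, adjusted p up to 0.088). Tubb3, the neuronal tubulin, had 3918 and 6746 at E10.5 and 1212 and 129 at E13.5 and did not pass (-2.99 ± 1.09 SE, adjusted p = 0.0764). Ednrb, the endothelin receptor of migrating crest, had 1353 and 1502 at E10.5 and 1719 and 1904 at E13.5 (0.34 ± 0.24 SE, adjusted p = 0.453).

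The Lin28 and let-7 network fell. Lin28a and Lin28b are RNA-binding proteins that block the maturation of let-7 microRNAs in early embryos, and let-7, once made, pairs through its seed with messenger RNAs of growth regulators, Lin28 among them. Of 17 tested members of the list (18 listed) 14 were lower and none was higher, with a median log2 fold change of -1.43, and 9 to 11 with a library left out. Lin28a had 297 and 249 normalized counts at E10.5, 2.58 and 44.2 at E11.5 and 12.2 and 2.97 at E13.5 (log2 fold change -5.14 ± 0.97 SE, adjusted p = 0.00072), and Lin28b had 1164 and 768 at E10.5, 151 and 246 at E11.5 and 184 and 59.4 at E13.5 (-2.99 ± 0.52 SE, adjusted p = 0.000345). Trim71, a ubiquitin ligase and RNA-binding protein of early embryos, fell from 998 and 730.2 to 86.8 and 27.5 (-3.91 ± 0.7 SE, adjusted p = 0.000407), and Igf2bp1, which stabilizes growth-related messenger RNAs, from 8633 and 6244 through 2739 and 3333 to 1818 and 1911 (-2.0 ± 0.21 SE, adjusted p = 8.4e-07). Nr6a1, the germ cell nuclear factor, went from 286 and 284 to 58.8 and 53.5 (-2.34 ± 0.36 SE, adjusted p = 7.28e-05) and Arid3b, an AT-rich DNA-binding protein, from 451 and 414 to 100.4 and 99.5 (-2.11 ± 0.37 SE, adjusted p = 0.000378). In each of these genes both E13.5 values lay below both E10.5 values. Hmga2, a chromatin protein of growing tissue, fell from 5923 and 3491 to 2261 and 1118 (-1.48 ± 0.37 SE, adjusted p = 0.00835; not called without E10.5 replicate 1 or E13.5 replicate 2, adjusted p up to 0.171).

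The let-7 microRNAs were not measured by these libraries, but their seed bears on which of the falling messenger RNAs could pair with them, so it is shown beside the sites. Of 11 mature microRNAs of the family in RefSeq (GRCm38.p6), 10 share the seed GAGGUAG at bases 2 to 8. Capitals below mark the seed in the microRNAs and, in the messenger RNAs, the site CTACCTCA that pairs with the seed and its flanking base. Only this site of 8 bases was counted, so a gene without it can still hold a shorter match to the seed. Sites are given in the sense of the gene with 11 bases on each side, and all lie in the annotated 3' UTR (GRCm39). The Lin28a site is at chr4:133732489-133732518 on the minus strand, the Lin28b site at chr10:45257107-45257136 (minus), the Trim71 site at chr9:114341529-114341558 (minus), the Nr6a1 site at chr2:38617450-38617479 (minus) and the Igf2bp1 site at chr11:95852593-95852622 (minus).
let-7a: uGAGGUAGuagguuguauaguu
miR-98: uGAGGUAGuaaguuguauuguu
Lin28a: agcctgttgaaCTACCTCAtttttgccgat
Lin28b: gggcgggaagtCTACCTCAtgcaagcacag
Trim71: ttgcctaagtcCTACCTCAgcttaaatttt
Nr6a1: gacaaagacaaCTACCTCAatggaaacagg
Igf2bp1: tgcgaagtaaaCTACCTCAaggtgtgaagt

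The site occurred 4 times in the 3' UTR of Trim71, 3 times each in Nr6a1 and Igf2bp1, 2 times in Lin28a and once in Lin28b. Arid3a, Igf2bp2 and Igf2bp3 also hold it once, so that 8 of the 17 tested members carry it, all of them called lower, against 687 (3.41%) of 20172 tested genes with an annotated 3' UTR. The list was drawn up in part from known let-7 targets, so the site is a property of how it was made. Across all 687 genes with the site 99 (14.4%) were lower, against 7.34% of all genes with a 3' UTR. Of 36 genes with the site more than once 10 (27.8%) were lower. The list members Trim71, Nr6a1, Igf2bp1 and Lin28a are among these 36 and among the 10, so this share is raised by how the list was made. Without the genes of the list 91 of 679 genes with the site at least once (13.4%) were lower. Genes with the site have longer 3' UTRs (median 2734 bases against 1091 for the rest), and of 5785 genes without the site whose 3' UTR reached 2000 bases (median 3146), 11.9% were lower. The part of 3' UTR length in these shares was not tested.

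Other regulators of the early embryo fell with them. Of 19 tested genes of this kind 7 were lower and 1 was higher (4 to 6 lower with a library left out). Sall4, a zinc finger factor of pluripotent and early limb cells, fell from 393 and 351 to 76 and 5.94 (-3.18 ± 0.88 SE, adjusted p = 0.018; not called without E10.5 replicate 1, E10.5 replicate 2 or E13.5 replicate 2, adjusted p up to 0.156), and Sall1, which acts in kidney and nervous system, from 792 and 779 to 53.1 and 89.8 (-3.46 ± 0.68 SE, adjusted p = 0.00114). Msx2, a homeobox target of BMP signals, had 177 and 212 and then 17.9 and 9.65 (-3.8 ± 0.64 SE, adjusted p = 0.000237).

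Few DNA replication and mitosis genes passed the test, and those that did were lower. Of 28 DNA replication genes 2 (7.14%) were lower and of 28 mitosis genes 4 (14.3%), against 7.33% of protein-coding genes. Both counts were smaller with any library left out. The log2 fold change was negative for 26 of the DNA replication genes (median -0.41) and 27 of the mitosis genes (median -0.49). Members of each list are transcribed together in dividing cells, so these signs are not separate observations. Cenpf, a kinetochore protein of dividing cells, had 5366 and 4018 normalized counts at E10.5 and 1421 and 1938 at E13.5 (log2 fold change -1.48 ± 0.26 SE, adjusted p = 0.000381), and Pole, the catalytic subunit of DNA polymerase epsilon, had 1776 and 1623 at E10.5 and 746 and 886 at E13.5 (-1.06 ± 0.24 SE, adjusted p = 0.00343; not called without E13.5 replicate 1, adjusted p up to 0.0613). Mki67, which encodes Ki-67, had 14530 and 11769 at E10.5 and 6754 and 7842 at E13.5 (-0.85 ± 0.3 SE, adjusted p = 0.064). Of 14 tested cell cycle inhibitors 6 were higher (2 to 3 with a library left out). Rbl2, the pocket protein p130 of resting cells, had 168 and 194 at E10.5 and 442 and 444 at E13.5 (1.29 ± 0.17 SE, adjusted p = 1e-05), and Cdkn1c, the imprinted inhibitor p57, had 2368 and 2679.7 at E10.5 and 7207 and 7912 at E13.5 (1.58 ± 0.37 SE, adjusted p = 0.00459; not called without E10.5 replicate 1, adjusted p up to 0.0723). In the imprinted growth network 8 of 19 genes were higher and none was lower (2 to 8 with a library left out). Igf2, the fetal growth factor, rose from 13269 and 8923 to 27208 and 31557 (1.4 ± 0.34 SE, adjusted p = 0.00637; not called without E10.5 replicate 2, adjusted p up to 0.121) and Dlk1, an imprinted Notch-like ligand, from 1360.2 and 1203 to 3974 and 4667 (1.75 ± 0.37 SE, adjusted p = 0.00197). None of 30 nuclear oxidative phosphorylation genes was called, and all 30 had a positive log2 fold change (median 0.55).

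In the BMP and TGF-beta list 11 of 34 genes were higher and 1 was lower (7 to 11 higher with a library left out). Tgfb3, a ligand that induces matrix genes, had 232 and 224 normalized counts at E10.5, 801 and 902 at E11.5 and 1675 and 1204 at E13.5 (log2 fold change 2.66 ± 0.29 SE, adjusted p = 1.17e-06), and its receptor Tgfbr2 had 543 and 548 at E10.5, 1292 and 1165 at E11.5 and 1993 and 2099 at E13.5 (1.91 ± 0.18 SE, adjusted p = 2.68e-07). Both had passed by E11.5 (adjusted p = 0.000259 and 0.000412), with close replicates. Inhba, the activin A subunit, rose from 24.2 and 23.2 to 392 and 313 (3.89 ± 0.52 SE, adjusted p = 1.48e-05) and Gdf10, a ligand of the same family, from 159.7 and 129 to 1182 and 1114 (2.99 ± 0.53 SE, adjusted p = 0.000377). In the Wnt list 14 of 45 genes were higher and 4 were lower (7 to 12 and 2 to 4 with a library left out). Among the secreted antagonists, Dkk2 rose from 233 and 182 to 861 and 692 (1.9 ± 0.37 SE, adjusted p = 0.000999), Dkk3 from 143 and 156 to 583 and 1545 (2.83 ± 0.42 SE, adjusted p = 5.83e-05) and Sfrp2 from 522 and 526 to 3441 and 2468 (2.5 ± 0.63 SE, adjusted p = 0.00848; not called without E10.5 replicate 1, E10.5 replicate 2 or E13.5 replicate 1, adjusted p up to 0.0915). Fzd3, a Wnt receptor of neurons and planar polarity, fell from 7156 and 5802 to 1256 and 1512 (-2.23 ± 0.28 SE, adjusted p = 8.4e-06).

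In the Hedgehog list 2 of 16 genes (12.5%) were higher and 3 (18.8%) were lower, against 12.8% and 7.33% of protein-coding genes. These counts changed with a library left out. For the 3 lists that follow, the shares to set against the same 2 values were 25.9% higher and 3.70% lower (FGF), 22.2% and 16.7% (retinoic acid) and 20% and 15% (Notch). The lower genes of the Hedgehog list included both a transducer and a target. Gli3, the transcription factor that mostly represses Hedgehog targets, fell from 2965 and 2073 to 1129 and 1094 (-1.18 ± 0.2 SE, adjusted p = 0.000222), and Ptch1, the receptor that is itself a target, from 2004 and 1998 to 1094 and 945 (-0.97 ± 0.24 SE, adjusted p = 0.00737; not called without E10.5 replicate 1 or E13.5 replicate 2, adjusted p up to 0.084). Hhip, a target that binds the ligand at the cell surface, was higher (179.8 and 139 at E10.5 and 286 and 469 at E13.5; 1.24 ± 0.4 SE, adjusted p = 0.0397; not called without E10.5 replicate 1, E10.5 replicate 2 or E13.5 replicate 2, adjusted p up to 0.327). Of 27 FGF genes 7 were higher and 1 was lower (4 to 7 and 0 to 1 with a library left out). Fgf2 rose from 75.8 and 46.4 to 189 and 377 (2.21 ± 0.33 SE, adjusted p = 5.51e-05), and Fgfr3 fell from 591 and 925 to 177 and 352 (-1.52 ± 0.42 SE, adjusted p = 0.017; not called without E10.5 replicate 2 or E13.5 replicate 1, adjusted p up to 0.243). In the retinoic acid list 4 of 18 genes were higher and 3 were lower (3 to 4 and 1 to 3 with a library left out). The synthesizing enzymes Aldh1a3 (10.48 and 14.2 at E10.5 and 242 and 258 at E13.5; 4.33 ± 0.55 SE, adjusted p = 8.27e-06) and Aldh1a1 (10.48 and 13.47 at E10.5 and 754 and 185 at E13.5; 5.28 ± 1.11 SE, adjusted p = 0.002) rose. The degrading enzyme Cyp26b1 (497 and 707 at E10.5 and 153 and 126 at E13.5; -2.11 ± 0.51 SE, adjusted p = 0.00595; not called without E10.5 replicate 2 or E13.5 replicate 2, adjusted p up to 0.0681), the retinol uptake receptor Stra6 (490.2 and 355 at E10.5 and 120.5 and 80.9 at E13.5; -2.07 ± 0.38 SE, adjusted p = 0.000567) and the binding protein Crabp2 (2448 and 2412 at E10.5 and 960.2 and 592 at E13.5; -1.65 ± 0.38 SE, adjusted p = 0.00427; not called without E13.5 replicate 2, adjusted p up to 0.0844) fell. In the Notch list 4 of 20 genes were higher and 3 were lower (1 to 2 and 2 to 4 with a library left out), the lower ones being Hes5, Dll3 and Dll1, ligands and a target in neural progenitors. Dll1 had 536 and 936 at E10.5 and 151 and 259 at E13.5 (-1.84 ± 0.38 SE, adjusted p = 0.00185; not called without E10.5 replicate 2 or E13.5 replicate 1, adjusted p up to 0.0555), and Jag1, a ligand of vessels and epithelia, had 761 and 982 at E10.5 and 1396 and 1713 at E13.5 (0.83 ± 0.25 SE, adjusted p = 0.0295; not called without E10.5 replicate 1, E10.5 replicate 2 or E13.5 replicate 2, adjusted p up to 0.281).

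Of 38 tested Hox genes 5 (13.2%) were lower and none was higher, against 7.33% and 12.8% of protein-coding genes. Fewer Hox genes were called with any library left out. Hoxd4, a gene of the hindbrain and anterior trunk, had 395 and 516 normalized counts at E10.5 and 8.61 and 27.5 at E13.5 (log2 fold change -4.65 ± 1.25 SE, adjusted p = 0.014; not called without E10.5 replicate 2, E13.5 replicate 1 or E13.5 replicate 2, adjusted p up to 0.157). Hoxb9, a gene of the trunk, had 1238 and 469 at E10.5 and 89.6 and 11.1 at E13.5 (-4.08 ± 1.3 SE, adjusted p = 0.0411; not called without E10.5 replicate 1, E10.5 replicate 2, E13.5 replicate 1 or E13.5 replicate 2, adjusted p up to 0.256).

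Globin transcripts shifted from embryonic towards adult genes. Red cells of the yolk sac use embryonic globins, and red cells made in the liver use adult globins. Hbb-bh1, an embryonic beta-like globin, had 12112 and 10502 normalized counts at E10.5, 535 and 638 at E11.5 and 269.6 and 194 at E13.5 (log2 fold change -5.61 ± 0.56 SE, adjusted p = 1.07e-06). Hbb-bs, an adult beta globin, had 504 and 828 at E10.5, 2609 and 2683 at E11.5 and 38890 and 18246 at E13.5 (5.42 ± 0.76 SE, adjusted p = 2.85e-05), and its neighbour Hbb-bt had 160.4 and 233 at E10.5, 891 and 914 at E11.5 and 12603 and 6338 at E13.5 (5.59 ± 0.75 SE, adjusted p = 1.65e-05). The embryonic gene had nearly gone by E11.5, and the adult genes rose mostly after it. Hbb-y, the other embryonic beta-like gene, did not pass, with 23994 and 24383 at E10.5 and 23920 and 18287 at E13.5 (-0.2 ± 0.51 SE, adjusted p = 1.00). In the alpha cluster Hba-x fell from 10683 and 11541 to 2789 and 2051 (-2.2 ± 0.5 SE, adjusted p = 0.00407; not called without E13.5 replicate 2, adjusted p up to 0.0621), and Hba-a1 rose from 5464 and 7809 to 39573 and 22192 (2.22 ± 0.69 SE, adjusted p = 0.0343; not called without E10.5 replicate 1, E10.5 replicate 2 or E13.5 replicate 1, adjusted p up to 0.253). Hba-a1 and Hba-a2, like Hbb-bs and Hbb-bt, are near-identical copies between which reads could be split, so their single values are uncertain. Shares within a cluster depend on the length that counts are divided by. The annotated exons of a gene together span 1631 bases in Hbb-bs and 1660 in Hbb-bt, against 633 in Hbb-y and 613 in Hbb-bh1. Per kb of exon, the adult genes made up 0.699% and 1.15% of the beta cluster at E10.5, 5.62% and 5.80% at E11.5, and 45.1% and 33.9% at E13.5. In the alpha cluster the adult share was 34.0% and 40.6%, 76.8% and 75.6%, and 93.5% and 91.6%. As shares of normalized counts, with no division by length (a scale added after the data were seen), the adult beta genes made up 1.81% and 2.95% at E10.5, 13.4% and 13.8% at E11.5 and 68.0% and 57.1% at E13.5. The adult share rose with age on both scales. None of 20 other erythroid genes was called in either direction.

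**Figure D4:**
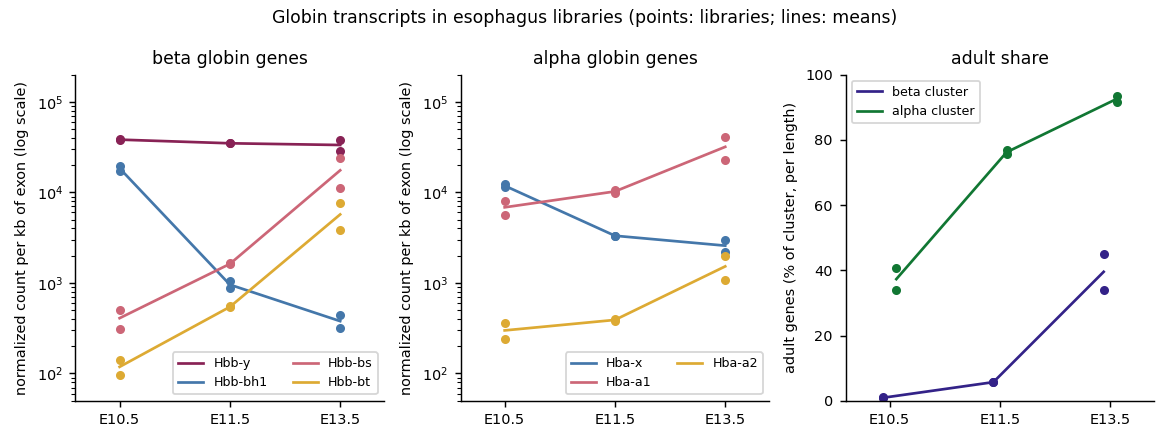
Normalized counts per kb of exon (log axis) of the beta and alpha globin genes in the 6 esophagus libraries of E10.5, E11.5 and E13.5, and the adult genes' share of each cluster in percent. The adult share rose at each age in both clusters and was ahead in the alpha cluster, while Hbb-y lay flat.

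The 3 beta-like genes with different courses lie within one cluster on chromosome 7, and the 120 bases before the start of each gene's canonical transcript in the annotation are shown for comparison. For Hbb-bh1 and Hbb-y that start is also the start of the gene, while the annotated span of Hbb-bs begins further upstream, at position 103482989. They are given in the sense of the gene (minus strand, GRCm39), at chr7:103477170-103477289 for Hbb-bs, chr7:103492372-103492491 for Hbb-bh1 and chr7:103502424-103502543 for Hbb-y. Capitals mark CACCC (bound by factors of the KLF family) and CCAAT, searched on both strands.
Hbb-bs: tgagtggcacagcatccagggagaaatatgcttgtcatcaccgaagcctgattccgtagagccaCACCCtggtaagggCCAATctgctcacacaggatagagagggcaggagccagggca
Hbb-bh1: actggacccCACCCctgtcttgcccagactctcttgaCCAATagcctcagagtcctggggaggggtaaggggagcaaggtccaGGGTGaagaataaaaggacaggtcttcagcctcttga
Hbb-y: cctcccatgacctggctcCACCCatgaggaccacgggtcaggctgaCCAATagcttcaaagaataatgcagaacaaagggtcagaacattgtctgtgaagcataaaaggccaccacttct

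All 3 windows hold CACCC and CCAAT. Both occurred together in 7.43% of 21626 promoters of the same length, CACCC in 33.7% and CCAAT in 24.3%. The motifs were thus common to the gene that rose, the gene that fell and the gene that did not pass. Their distances from the annotated starts differed. In the sense of the gene, CACCC and CCAAT began 56 and 42 bases before the start in Hbb-bs. In Hbb-bh1 they began 111 and 83 bases before it, and in Hbb-y 102 and 74. The 3 windows are thus not aligned on the motifs.

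Some large rises came from 1 pool. Gzma, a granzyme of lymphocytes, had 0 in both E10.5 libraries and 295 and 0.742 at E13.5, Cd3g, a chain of the T cell receptor complex, had 0 and then 233 and 6.68, Prss16, a protease of the thymic cortex, had 1.61 and 1.5 and then 1008 and 4.45, and Il7, a lymphocyte growth factor, had 0 and 0.748 and then 336 and 4.45. Nearly all of these counts lay in replicate 1 of E13.5. Their calls were lost without it and without either E10.5 library (adjusted p up to 0.892, 0.414, 0.969 and 0.677). Pth, the parathyroid hormone, followed the same pattern without a call (461 and 0.742 at E13.5, adjusted p = 0.0746). In the same pool Alb, the albumin of liver, had 11161 against 1098 in replicate 2. Of 19 cartilage genes 7 were higher and 2 were lower, against 1 to 8 higher with a library left out (median log2 fold change 1.37). In replicate 2 of E13.5 the cartilage genes Matn1 (0 and 241) and Comp (1.43 and 125) were high. Both were called (adjusted p = 0.0221 and 0.00937) but not without either E10.5 library, and without replicate 2 of E13.5 their log2 fold changes were -3.81 and -0.87 (adjusted p = 0.814 and 0.895). Of 13 sclerotome and tendon genes 3 were higher, with and without each library, while 8 of the 13 had a log2 fold change below 0 (median -0.51). Tnmd, a tendon membrane protein, had 0.806 and 0.748 at E10.5 and 49.5 and 192 at E13.5 (ratio 154, 95% counting interval 42.3 to 1278), and Tnn, a tenascin of developing bone that is not on that list, had 0 and 0.748 at E10.5 and 96.8 and 187 at E13.5 (ratio 364, interval 64.9 to 14404).

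Beside Msx3, Olig3, Sp8, Prdm13 and Atoh1, the 10 largest falls by fitted log2 fold change held 5 other genes. All 10 were at 0 in both E13.5 libraries, so their folds are known only as bounds, and falls of genes still counted at E13.5, such as Lhx1, Neurod4 and Pax6, may be as large or larger. Glra1 and Grm2, receptors for the neurotransmitters glycine and glutamate, fell from 98.4 and 146 and from 97.6 and 129 to 0, at least 55.8-fold and 51.7-fold, the first of them not called without either E13.5 library (adjusted p up to 0.0681). Gcg, the glucagon gene, had 67.7 and 107 normalized counts at E10.5 and 0 at E13.5 (at least 39.9-fold lower), with 0.860 and 50.4 at E11.5, and lost its call without E13.5 replicate 1 (adjusted p = 0.053). Sst, the somatostatin gene of endocrine cells and neurons, had 91.9 and 87.5 and then 0 (at least 41-fold lower). Nepn, a small proteoglycan of the early gut endoderm, had 77.4 and 86.8 and then 0 (at least 37.5-fold lower), a call lost without either E13.5 library (adjusted p up to 0.0773).

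Calls came from both steps between the ages. From E10.5 to E11.5, 767 genes (2.16%) were higher and 124 (0.349%) lower, and from E11.5 to E13.5, 900 (2.53%) were higher and 1136 (3.20%) lower. Of the fibrous matrix genes 25 of 30 were higher over the first step and 10 over the second. Of the heart muscle genes 2 were lower over the first and 16 higher over the second. The 2 steps share the E11.5 libraries, 1 of which held most of the neural and cartilage transcripts of that age.

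The same ages were compared in trachea and larynx, to show where the esophagus differed. Trachea gave 4709 genes (13.3%) and larynx 6720 genes (18.9%) that changed in either direction, against 4469 (12.6%) in the esophagus. Fibrous matrix genes rose in all 3 tissues, with 28 of 30 members higher in trachea and 29 in larynx, and 15 and 16 of 17 genes of the Lin28 network fell there. Basal and squamous genes were higher in 20 of 25 cases in the esophagus, in 7 in trachea and in 8 in larynx, but none of these 25 genes passed the test of the difference between esophagus and either tissue, so a difference between the epithelia was not detected. Of the smooth muscle genes 17 of 22 were higher in esophagus, 7 in trachea and 18 in larynx. None of these 22 genes passed the test of the difference from trachea. Against larynx 1 passed, with the lower change in the esophagus.

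**Figure D5:**
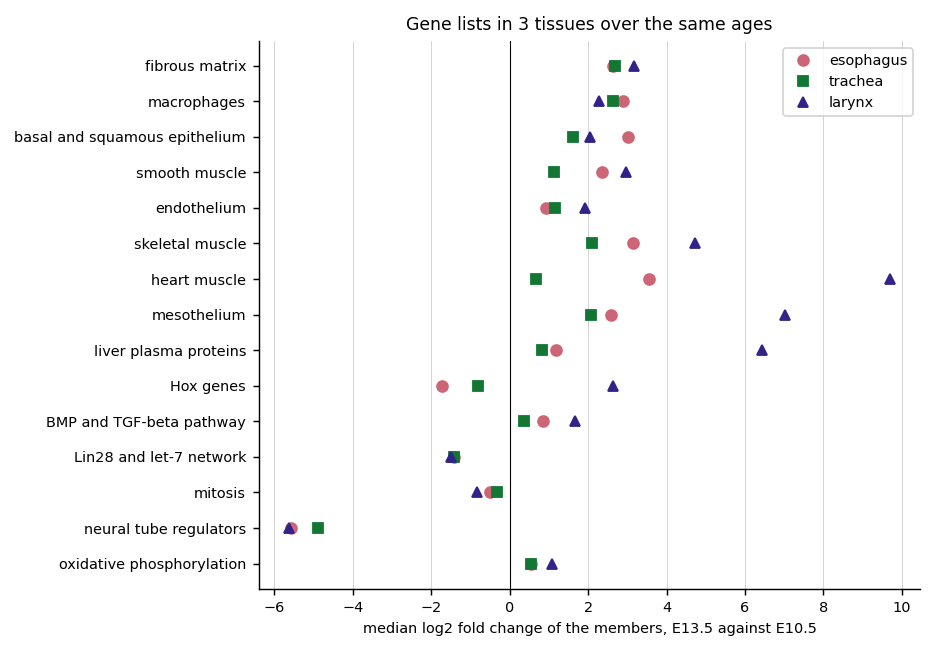
Median log2 fold change between E10.5 and E13.5 of 15 gene lists in esophagus, trachea and larynx (2 libraries of each age and tissue). The tissues lay close together for fibrous matrix, macrophages and the Lin28 network, and larynx stood far to the right for heart muscle, mesothelium and liver genes.

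Against trachea, 1 gene (0.00282% of those tested) changed differently, and 1018 genes had an unadjusted p under 0.05. This was Myh7, the slow and ventricular myosin heavy chain. In the esophagus Myh7 had 307 and 429 normalized counts at E10.5 and 1482 and 4491 at E13.5, and in the trachea it had 16237 and 32215 at E10.5 and 2673 and 2495 at E13.5. It rose by 3.02 ± 0.68 SE on the log2 scale in the esophagus and changed by -3.23 ± 0.68 in the trachea, a difference of 6.25 ± 0.96 SE (adjusted p = 0.0379). With the replicate number as a block no gene passed this test, and the rise of Myh7 in the esophagus was itself not called without E10.5 replicate 1 or E13.5 replicate 2, adjusted p up to 0.0828. The 20 heart muscle genes summed to 54609 and 98153 in the E10.5 trachea libraries and to 82246 and 134246 at E13.5, so heart transcripts were abundant in the trachea pools of both ages. Their part in the difference was not tested.

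Against larynx, 8 genes (0.0225%) changed more in the direction of a rise in the esophagus and 72 (0.203%) in the direction of a fall, and 1831 had an unadjusted p under 0.05. Aldh1a3, the retinoic acid synthesizing enzyme, rose in the esophagus (above) and fell in the larynx, with 315 and 229 at E10.5 and 75.8 and 45 at E13.5 (difference 6.49 ± 0.73 SE, adjusted p = 8.56e-05). Crym, a thyroid hormone binding protein, had 48.4 and 73.3 at E10.5 and 78.2 and 101 at E13.5 in the esophagus but 1007 and 594 at E10.5 and 51.2 and 45 at E13.5 in the larynx (difference 4.61 ± 0.72, adjusted p = 0.00363). Crym fell in the larynx (-4.05 ± 0.54 SE, adjusted p = 5.3e-06) and did not pass in the esophagus (adjusted p = 0.586). Lgi1, a secreted protein of neurons and glia, rose from 8.87 and 6.73 to 114 and 249 in the esophagus and had 44 and 40.8 at E10.5 and 70.5 and 24.8 at E13.5 in the larynx (difference 4.34 ± 0.84, adjusted p = 0.0206). Cpxm2, a secreted carboxypeptidase-like protein, behaved likewise (13.7 and 11.2 at E10.5 and 169.9 and 86.1 at E13.5, against 17 and 14.1 at E10.5 and 14 and 11.9 at E13.5, difference 3.6 ± 0.77, adjusted p = 0.0425). Sostdc1, a secreted inhibitor of BMP and Wnt signals, went from 45.2 and 54.6 to 100.4 and 179.7 in the esophagus and from 95.9 and 109.7 to 35.2 and 33 in the larynx and differed by 3.07 ± 0.65 (adjusted p = 0.0409).

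The 5 genes that led in the other direction are heart or mesothelial genes, Mybpc3, Csrp3, Myh6, Upk3b and Myl7. They were called higher in the esophagus too, but in the larynx they went from close to 0 to very high levels. Myh6 had 4.0 and 1.41 in the larynx libraries of E10.5 and 57875 and 101610 at E13.5, against 127 and 3233 at E10.5 and 3189 and 36209 at E13.5 in the esophagus (adjusted p = 0.00785). Upk3b had 0 and 0 at E10.5 and 2118 and 4828 at E13.5 in the larynx (adjusted p of the difference 0.000922). The 20 heart muscle genes summed to 261 and 650 in the larynx libraries of E10.5 and to 199523 and 388954 at E13.5, above every esophagus library, and the 20 liver genes to 658 and 939 and then 19771 and 3798. These sums move with the difference, and their part in it was not tested.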

How the data were processed

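The authors sequenced poly-A selected RNA (TruSeq preparation, Illumina HiSeq and NovaSeq) and deposited RSEM expected counts per Ensembl gene for 53647 genes. The submitters' processing notes name FastQC 011.5, Bowtie2 2.4.2, RSEM 1.3.3 and GRCm39, with no annotation release or strand setting named in the sources. Gene names were taken from an annotation of the same build (52610 genes matched). Mitochondrial rRNA held 12.3% to 16.3% of the counts in the 4 libraries.

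Expected counts were rounded, scaled by relative log expression factors, filtered to genes that reached a normalized count of 1 in 2 or more libraries, and fitted with edgeR 4.0.16 (R 4.3.3, quasi-likelihood test, Benjamini-Hochberg adjusted p over all genes) as 15 group means over 30 libraries. The comparisons were E13.5 against E10.5 in the esophagus, each step through E11.5, and the esophagus change minus that of trachea or larynx. Fits were tested on simulated data: of 50 genes changed 4-fold between these ages, among 35512, 31 were recovered, and of 50 changed 2-fold, 1. A further 6 unchanged genes were called. The simulation changed 50 genes at each of 2-, 4-, 8- and 16-fold and gave all genes 1 spread (dispersion 0.11). In the data 4469 genes were called, so these recoveries are not the power of the comparison.

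Between the ages, deviations of replicates 1 and 2 correlated at 0.041 over 14966 genes with a mean normalized count over 20. At E13.5 the liver sums of replicates 1 and 2 were 46986 and 5035 in esophagus and 37786 and 1551 in trachea. In larynx they were 19771 and 3798. Heart muscle sums at E13.5 were higher in replicate 2 of all 3 tissues. They were 19931 and 126693 in esophagus, 82246 and 134246 in trachea and 199523 and 388954 in larynx. Sums of thyroid, parathyroid and thymus genes were higher in replicate 1 (1961 and 178, 1854 and 167, and 624 and 212). Skeletal muscle and cartilage sums did not keep 1 order over the 3 tissues. The correlation between ages does not bear on pairing between tissues. The differences between tissues were fitted with all libraries as separate samples, and pairing of replicates between tissues was not tested. The members and lists were chosen with earlier results of these data known. Named genes were the 10 largest rises and falls, up to 6 called and 4 abundant members of each list (mean normalized count of at least 50 for called genes), genes the study names, and 5 differences per direction and tissue. A gene at 0 in an age was set against a floor of 3 counts per library, and intervals cover counting error only. Alternatives were TMM factors, DESeq2 1.42.0, other filters and library sets, a replicate block, and leaving out each library. The values of 1 gene named by this rule are not reported here.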

Additional observations from a re-analysis of the deposited data

Results flagged for a closer look

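The test of the difference between tissues picked out 1 gene against trachea and against larynx 8 genes whose log2 fold change was higher in the esophagus and 72 whose change was lower. Against trachea it was Myh7 (adjusted p = 0.0379). Against larynx, Aldh1a3 (adjusted p = 8.56e-05), Crym (0.00363), Lgi1 (0.0206), Sostdc1 (0.0409) and Cpxm2 (0.0425) were the leading genes higher in the esophagus, each an adjusted p of edgeR's quasi-likelihood test. In the other direction Upk3b (0.000922), Myl7 (0.00692), Myh6 (0.00785), Mybpc3 (0.0243) and Csrp3 (0.0245) led. Mybpc3 and Csrp3, a sarcomere protein and a muscle LIM protein, were at 0 in both larynx libraries of E10.5. At E13.5 the larynx had 7810.3 and 14016 normalized counts of Mybpc3 and 5144 and 9987 of Csrp3. In the esophagus Mybpc3 had 12.9 and 342 at E10.5 and 514 and 3993 at E13.5, and Csrp3 had 8.87 and 141 and then 358 and 2238. Myl7, an atrial myosin light chain, had 0 and 2.11 and then 27884 and 62404 in the larynx and 58.1 and 670.3 and then 1797 and 13601 in the esophagus.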

How the results depend on the processing

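Against 2627 higher and 1842 lower genes, leaving out 1 of the 4 libraries gave 1300 to 1927 higher and 688 to 1130 lower genes. Lower genes numbered 2948 with DESeq2, 940 with all 40 libraries and 1169 with the esophagus libraries only. Of all calls 58.8% were higher with mitochondrial genes left out, 65.5% with TMM factors and 73.7% without E13.5 replicate 1. TMM factors moved the median of genes with a mean normalized count over 20 to 0.078.

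For the difference from trachea (1 higher, 0 lower), the higher genes numbered 2 with TMM factors, 8 with DESeq2, 301 without a filter, and 0 with a normalized count of at least 10, with all 40 libraries, without 3 libraries rich in olfactory receptor genes and with the replicate block. Lower genes numbered 5 with DESeq2 and 103 without a filter. Leaving out 1 library gave 0 to 2 higher and 0 lower. For the difference from larynx (8 higher, 72 lower), higher genes numbered 48 with DESeq2, 262 without a filter, 3 with a normalized count of at least 10, 3 with all 40 libraries, 16 without the olfactory libraries and 2 with ages E10.5 to E13.5 only. Lower genes numbered 269 with DESeq2, 598 without a filter, 35 with all 40 libraries and 25 with ages E10.5 to E13.5 only. Leaving out 1 library gave 2 to 7 higher and 11 to 190 lower. The causes were not tested.

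The replicate block gave 2527 higher and 1792 lower genes, and 7 higher and 65 lower against larynx. Of 127 called genes named for the main comparison, 75 kept the call and direction under every alternative, 79 without each library in turn, 124 with the replicate block and 105 with all 40 libraries. With 1 library left out the log2 fold change of Krt8 ran from -0.89 (without E13.5 replicate 1) to 2.31, that of Matn1 from -3.81 (without E13.5 replicate 2) to 9.99 and that of Comp from -0.87 (without E13.5 replicate 2) to 5.46. With 2 pools per age a gene that did not pass is not shown to be unchanged. The simulated recovery of 2-fold changes was set with far fewer changed genes than were called here, so it does not measure how many were missed.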

Other observations

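In some lists few genes passed the test. Of 18 motile cilia genes 2 were lower, among them Ccdc40, an assembly factor of ciliary axonemes, which fell from 160.4 and 191 normalized counts to 32.3 and 21.5 (log2 fold change -2.7 ± 0.63 SE, adjusted p = 0.00456; not called without E13.5 replicate 2, adjusted p up to 0.0664). Of 20 glycolysis genes 2 were higher, among them Aldoc, an aldolase, from 17.7 and 31.4 to 151 and 132 (2.51 ± 0.58 SE, adjusted p = 0.00427; not called without E10.5 replicate 1, adjusted p up to 0.0945). Of 19 genes of cranial and sensory ganglia 2 were higher and 2 lower, and Pou4f1, a factor of sensory neurons, had 229 and 174 at E10.5 and 3.59 and 2.23 at E13.5 (-6.06 ± 1.44 SE, adjusted p = 0.00545; not called without E13.5 replicate 1 or E13.5 replicate 2, adjusted p up to 0.0686). Of 20 liver plasma protein genes and of 12 lung genes 2 each were higher (10% and 16.7%). Of 16 thyroid, parathyroid and thymus genes 1 was higher (6.25%), and none of 13 tested stomach genes was called. Apart from that of the stomach list, the counts in this paragraph changed when some of the libraries were left out.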
